A study of Rattus norvegicus with 113 samples.

Results

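The change in messenger RNA after traumatic brain injury (TBI) was compared between hippocampus and cortex 2 weeks after the injury. The members were the 15 of the 113 arrays of the series that came from sham-injured or TBI rats at 2 weeks, chosen by their labels, with 1 cortical sham array (replicate 3) left out. They were 4 sham and 4 TBI arrays of the hippocampus and 3 sham and 4 TBI arrays of the cortex. The rats were Sprague-Dawley, adult and male by the study's methods, and each array held the RNA of 1 tissue sample of 1 rat. TBI was a parasagittal fluid percussion injury, which the labels call moderate and the methods severe. Sham-injured rats had the same anesthesia and surgery without the injury, so the skull was opened in both groups. Another 8 arrays at 2 weeks came from naïve rats, which had no anesthesia and no handling, and serve below as a second control. The cortical sample was a small piece close to the injury and the hippocampal sample was the whole structure of 1 hemisphere of the brain.

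In a fluid percussion injury a pulse of fluid strikes the exposed dura, and the cortex beneath it lies nearer to the impact than the hippocampus. In the weeks that follow, microglia, the resident macrophages of the brain, multiply and take up debris, and blood-derived immune cells can enter. These cells carry complement, MHC molecules, which show peptides to T cells, and the genes that interferon switches on, while astrocytes become reactive and synaptic transcripts of neurons can fall. The comparison asks which of these changes belong to 1 region and which to both.

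The region difference of a gene is its log2 change from sham to TBI in the hippocampus minus that in the cortex, so a positive value means that TBI raised the gene more, or lowered it less, in the hippocampus. It was tested in a limma fit of all 15 arrays over 25453 probes, of which the named ones stand for 11578 genes, and a probe was called at an adjusted p under 0.05. Levels are signals on a linear scale on which the 75th percentile of the array is 100, and they compare arrays for 1 probe, never probes with each other. In bulk tissue, fewer cells of a type and less RNA per cell cannot be told apart.

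Between 42.3% and 60.9% of the probes were well above background on the 15 arrays, and on the cortical sham array left out this share was 93.0%, against 42.3% to 50.3% on the other cortical sham arrays. With that array kept, no region difference was called and the calls in the cortex fell from 4723 to 344. Cortical TBI arrays had 53.6% to 56.3% of probes well above background, more than any cortical sham array used. In the hippocampus sham (46.5% to 60.9%) and TBI arrays (57.8% to 59.4%) overlapped. All 8 hippocampal sham and TBI arrays shared 1 slide, and the hippocampal naïve arrays were on another. Cortical sham arrays shared a slide with cortical naïve arrays, and cortical TBI arrays were on another. An effect of the slide therefore cannot be told apart from the cortical change or from the region difference. With naïve rats as the control, TBI and control arrays were on different slides in both regions, so the same limit holds there. Sham and naïve hippocampi were on different slides as well. The summed level of the 11 hippocampal identity genes tested was 5574 to 6159 in hippocampal sham arrays and 3172 to 3325 in cortical ones. The 14 cortical identity genes did not separate the regions, with 2552 to 3005 in hippocampal sham arrays and 2485 to 2811 in cortical ones.

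Many more genes were called between TBI and sham in the cortex than in the hippocampus. TBI cannot be told apart from the slide in the cortex, so this contrast in counts is not credited to TBI alone. Most genes called in the hippocampus were also called in the cortex in the same direction. In the cortex 4723 probes (18.6% of those tested) were called, 2306 higher (9.06%) and 2417 lower (9.5%) after TBI. In the hippocampus 243 probes (0.955%) were called, 212 higher (0.833%) and 31 lower (0.122%). The region difference itself was called for 5 probes (0.0196%), and 3363 probes (13.2%) had an unadjusted p under 0.05. A call in 1 region only was therefore seldom accompanied by a called difference between the regions. In the median gene the 95% interval of the region difference reached 0.34 log2 units to either side. Sham and TBI rats gave both tissues, and with the replicate number as a fixed block for the rat no region difference was called (2879 probes at an unadjusted p under 0.05), while with it as a random block 23 were called. The counts in the hippocampus rested on single arrays, with 632 probes called without TBI replicate 2, 430 without cortical TBI replicate 3, and 10 to 126 without any 1 of the other 7 hippocampal arrays.

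By gene, 156 (1.35%) were higher and 14 (0.121%) lower in the hippocampus after TBI, and 1171 (10.1%) were higher and 1226 (10.6%) lower in the cortex. Both regions shared 149 genes with the same direction, 142 higher and 7 lower, which were 87.6% of the 170 genes called in the hippocampus and 6.22% of the 2397 called in the cortex. In the cortex, 2246 genes were called that were not called in the hippocampus, and 19 in the hippocampus that were not called in the cortex. The other 2, Lsm8 and Spmap2, were called in both regions in opposite directions. Among the genes called in the cortex only, 1940 had the same sign in the hippocampus, and 771 of these had an unadjusted p under 0.05 there. Of all 25453 probes, 3754 had such a p in the hippocampus in either direction, and the same sign was not counted over all genes. The median size was 0.15 in the hippocampus against 0.44 in the cortex. A cortical call selects for large cortical changes, so this contrast in size is no separate evidence of a region difference.

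**Figure D1:**
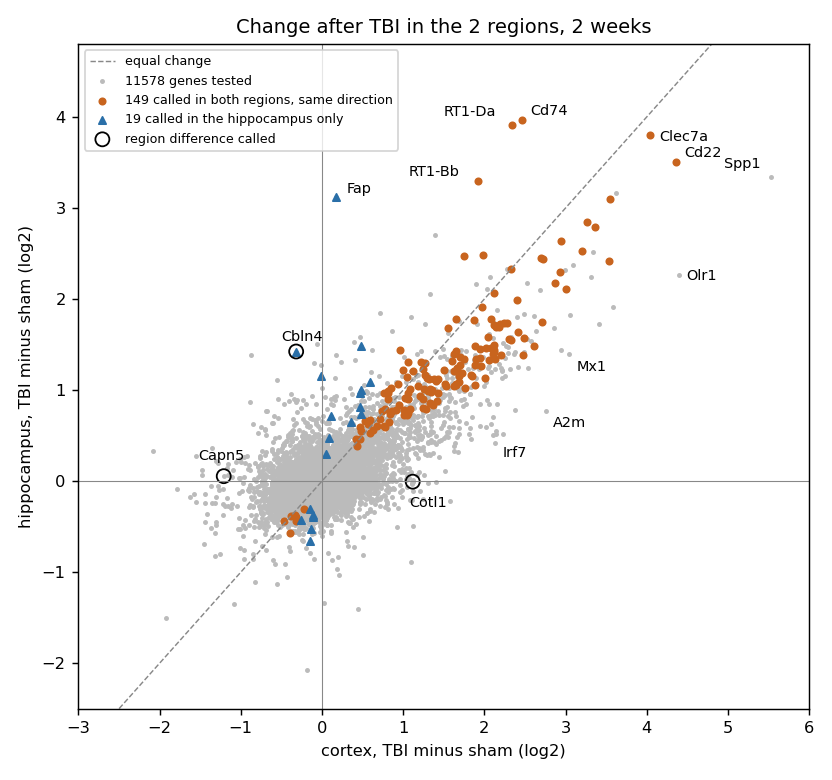
Each point is 1 of 11578 genes, with its log2 change from sham to TBI in the cortex on the x axis and in the hippocampus on the y axis, and a dashed line of equal change. The 149 genes called in both regions run along that line up to Clec7a and Cd22, Cd74 and RT1-Da lie above it, Spp1, Olr1 and A2m lie below it, and the 3 named genes with a called region difference (circles) lie off it near 1 of the axes.

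Cotl1, coactosin-like 1, an actin-binding protein of leukocytes and other motile cells, was the named gene with a called difference toward the cortex. Its level in the cortical sham arrays was 469, 453.8 and 452, and in the cortical TBI arrays 952, 1038, 847 and 1166. In the hippocampus it was 1967, 1700, 2132 and 2282 in sham and 1973, 2032, 2108 and 1891 in TBI arrays. The cortical groups did not overlap and the hippocampal ones did, and the level in the injured cortex stayed below every hippocampal array. The log2 change was 1.12 ± 0.11 (SE) in the cortex and -0.01 ± 0.10 in the hippocampus, a region difference of -1.12 with a 95% interval of -1.45 to -0.80 (limma, adjusted p = 0.029). A second probe for Cotl1 gave -1.11 (adjusted p = 0.091). Naïve cortex had levels of 455 to 861, and with naïve rats as the control the difference was -0.66 (adjusted p = 0.16).

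Cbln4, cerebellin 4, a secreted organiser of synapses, was called in the other direction. Hippocampal sham arrays had levels of 58.9, 76.1, 46.3 and 64.0, and hippocampal TBI arrays 146, 147, 191 and 167, with no overlap. Cortical levels were 95.8, 95.5 and 90.0 in sham and 82.8, 64.1, 80.2 and 75.1 in TBI arrays, slightly lower after TBI. On the log2 scale the hippocampal change was 1.42 ± 0.14 and the cortical one -0.32 ± 0.15, a region difference of 1.74 (95% interval 1.30 to 2.18; adjusted p = 0.024). The naïve hippocampi did not hold 1 level, however, since replicates 1 and 2 were at 53.7 and 43.2 and replicates 3 and 4 at 458 and 456. With naïve rats as the control the difference of Cbln4 was 0.04 (adjusted p = 0.98).

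Capn5, a calcium-dependent protease, had cortical sham levels of 12.7, 13.2 and 13.8 and cortical TBI levels of 5.08, 5.44, 6.76 and 5.74. In the hippocampus all 8 arrays lay between 4.86 and 6.55. The change was -1.21 ± 0.12 in the cortex and 0.05 ± 0.11 in the hippocampus, a region difference of 1.26 (95% interval 0.93 to 1.60; adjusted p = 0.024). This probe was dim, well above background on 2 of the 3 cortical sham arrays, and another probe for Capn5 gave a difference of -0.08 (adjusted p = 0.95). With normexp background correction the difference was 0.38 (adjusted p = 0.11).

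The other 2 called probes have no gene name here. The level of probe A_44_P1112931 fell in the cortex, from 251 to 268 in sham to 164 to 200 in TBI arrays, and its hippocampal arrays had 78.5 to 87.6 in sham and 90.5 to 111 in TBI. Its region difference was 0.84 (95% interval 0.59 to 1.09; adjusted p = 0.036). That of probe A_44_P360946 rose in the cortex, from 926 to 951 in sham to 1398 to 1469 in TBI arrays, while naïve cortex had 1067 to 1341. Its region difference was -0.60 (adjusted p = 0.024) against sham and -0.07 (adjusted p = 0.68) against naïve rats, and its 3 cortical sham arrays lay below all 4 naïve cortical arrays. When the 15 arrays were left out in turn, none of the 5 calls held in every fit, with adjusted p-values for Cbln4 between 0.008 and 0.059 and for Cotl1 between 0.019 and 0.090.

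Lsm8, a subunit of a nuclear complex that binds small nuclear RNA, fell in the hippocampus from 460, 418, 494 and 512 in sham to 331, 372, 309 and 312 in TBI arrays, and rose in the cortex from 128, 98.0 and 119 to 162, 154, 125 and 156. The groups did not overlap in the hippocampus and overlapped in the cortex. The changes were -0.51 ± 0.11 (adjusted p = 0.045) and 0.38 ± 0.12 (adjusted p = 0.037), and the region difference of -0.89 (95% interval -1.23 to -0.55) missed the threshold (adjusted p = 0.091). With naïve rats as the control it was -0.07 (adjusted p = 0.87). Spmap2, named for a sperm microtubule protein, rose in the hippocampus from 4.82, 5.24, 3.93 and 5.15 to 6.33, 7.03, 6.18 and 6.998 and fell in the cortex from 8.55, 8.91 and 10.6 to 6.95, 6.75, 6.95 and 7.94, with no overlap in either region. Its probe was dim, with 1 of 3 cortical sham arrays well above background. The changes were 0.48 ± 0.10 (adjusted p = 0.045) and -0.38 ± 0.11 (adjusted p = 0.028), and the region difference was 0.86 (adjusted p = 0.091) against sham and 0.80 (adjusted p = 0.046) against naïve rats. Both genes have 1 tested probe and were named after their values were seen.

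**Figure D2:**
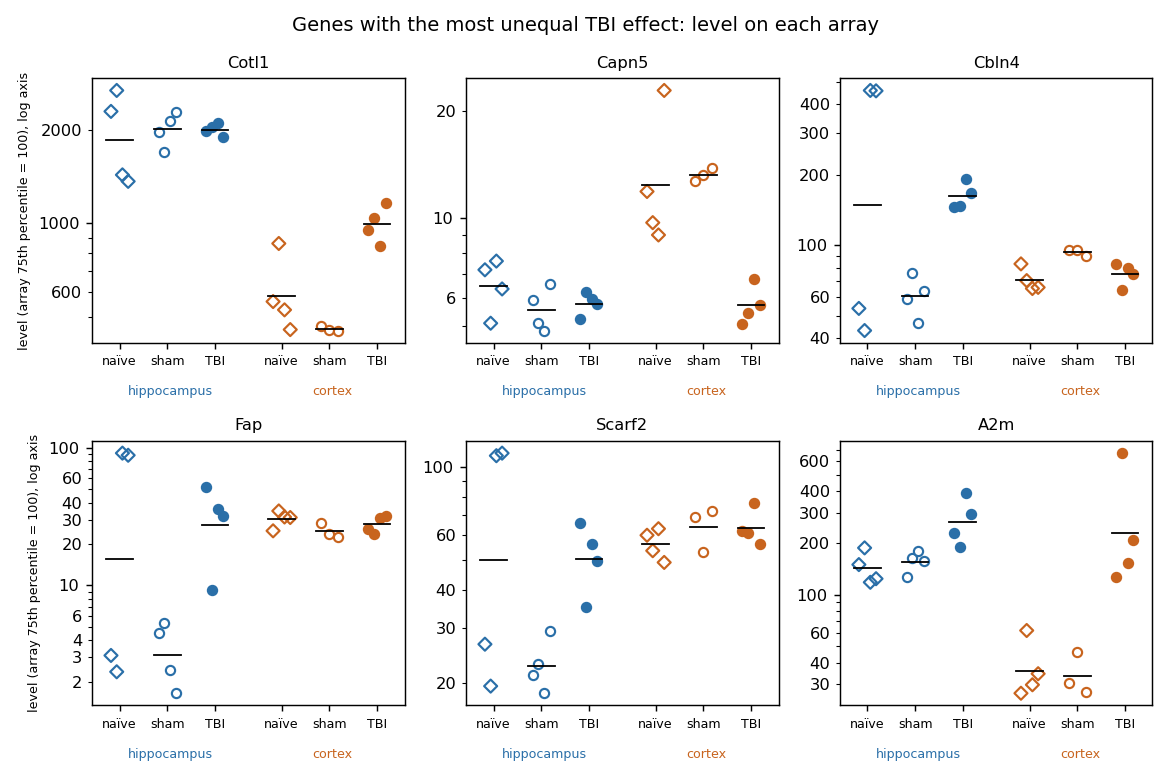
Level on each array (log axis, 75th percentile of the array = 100) of the 3 named genes with a called region difference and of Fap, Scarf2 and A2m, in naïve (diamonds), sham (open circles) and TBI (filled circles) rats, with hippocampus in blue, cortex in orange and the geometric mean as a line. Cotl1 rises and Capn5 falls in the cortex alone, Cbln4, Fap and Scarf2 rise from sham in the hippocampus, and for these 3 the naïve hippocampi split into a pair near the sham level and a pair above the TBI level.

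The shared genes with the largest changes, ranked by the smaller of the 2 regional values, were Clec7a, Cd22, F10, Ccl3, Cd68, Ccl4, Ccl2 and Cd74, of which Clec7a and Cd68 were on the list of disease-associated microglia and phagocytes. Clec7a, a receptor for fungal glucans carried by activated microglia, had hippocampal levels of 1.22 to 2.12 in sham and 20.4, 7.22, 41.8 and 42.9 in TBI arrays. The cortical levels were 1.93, 8.27 and 4.20 in sham and 35.2, 139, 46.9 and 85.8 in TBI arrays. The groups did not overlap in either region, and hippocampal sham arrays were not above background, so the rise there was at least 8.49-fold (adjusted p = 0.020). The cortical rise was 16.4-fold (adjusted p = 0.0022). Where a fold is a bound, the fitted region difference rests on signals not above background and is no measured difference.

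Cd68, a lysosomal protein of macrophages, rose from 9.45 to 13.2 to 71.2, 29.2, 143 and 130 in the hippocampus and from 15.9 to 22.6 to 183, 256, 104 and 258 in the cortex. These were rises of 6.93-fold and 10.2-fold, with a region difference of -0.56 (95% interval -1.92 to 0.79). Cd22, a sialic acid receptor of microglia and B cells, rose 11.3-fold in the hippocampus (adjusted p = 0.010) and at least 11.51-fold in the cortex (adjusted p = 0.00088). Its 2 probes disagreed in the sign of the fitted region difference, and neither was called. F10, coagulation factor X, rose 8.55-fold in the hippocampus and at least 9.27-fold in the cortex. Among the chemokines, which draw immune cells in, Ccl3 rose 7.19-fold and at least 6.04-fold, and Ccl2, which attracts monocytes, at least 3.81-fold (adjusted p = 0.046; above background on 3 of the 4 TBI arrays) and at least 6.08-fold (adjusted p = 0.0037). The fitted intervals of the region difference of these genes span more than 2 log2 units, so equal and clearly unequal changes are both inside them.

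Over the 142 shared genes that rose, the median change was 1.21 (hippocampus) against 1.63 (cortex). Of all 149 shared genes, 115 changed more in the cortex and 34 more in the hippocampus, and no region difference among them was called. This split includes genes whose fold in 1 region is a bound, such as Clec7a, and it was not counted over all genes. For 66 of the 149 the whole 95% interval of the difference lay within 1 log2 unit of 0. An unadjusted p under 0.05 was reached by 16 (13.2% of all genes reached it). Of these, Cd74, RT1-Da and RT1-Bb had the larger rise in the hippocampus (7.39% of all genes reached such a p toward the hippocampus). The other 13, among them Csf1r, the receptor through which microglia are kept alive, Irf8, a transcription factor of microglia and macrophages, and Cd86, a costimulator of T cells, changed more in the cortex. Csf1r rose from 173 to 229 in sham to 379, 309, 509 and 513 in TBI hippocampi, and from 162 to 192 to 595, 594, 450 and 626 in the cortex (region difference -0.58, unadjusted p = 0.030, adjusted p = 0.33). The 7 genes lower in both regions were Pank1, Rab40b, Ncapd3, Herc3, Pcnx1, Map1b and Cyfip2, with changes between -0.57 and -0.22 in either region. Map1b and Cyfip2 encode a microtubule-associated protein of axons and a regulator of actin at synapses.

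Of the 19 genes called in the hippocampus only, 13 rose and 6 fell. In the cortex 17 had the same sign, and 8 had an unadjusted p under 0.05 there. Of all 25453 probes, 8458 had such a p in the cortex, so the 8 are not read as a shared response. The same sign was not counted over all genes. Fap, a serine protease of activated fibroblasts, had the largest rise, from 4.53, 5.34, 2.44 and 1.65 in sham to 52.0, 9.25, 36.1 and 31.9 in TBI hippocampi. The groups did not overlap, and sham hippocampi were well above background on 2 of 4 arrays. In the cortex Fap was level, at 22.4 to 28.3 in sham and 23.6 to 31.9 in TBI arrays. The region difference was 2.95 (95% interval 1.48 to 4.41; adjusted p = 0.13), and naïve hippocampi again split into 3.10 and 2.36 (replicates 1 and 2) and 91.4 and 88.2 (replicates 3 and 4). The summed level of 15 matrix, fibroblast and meningeal genes was 5566 to 7333 in sham and 6292 to 7435 in TBI hippocampi, with overlap. In naïve hippocampi it was 6922 to 20384 with a median of 7259. Its part in the values of Fap was not tested. Scarf2, a scavenger receptor family member, had the same arrangement, with 18.5 to 29.4 in sham, 35.2 to 65.8 in TBI, and 26.6, 19.5, 109 and 111 in the 4 naïve hippocampi (region difference 1.16, adjusted p = 0.15). So for Cbln4, Fap and Scarf2 a rise against sham in the hippocampus stands beside naïve arrays that lie on both sides of the TBI level.

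Irf4, a transcription factor of lymphocytes and some macrophages, rose from 5.01 to 6.10 to 8.55 to 9.62 in the hippocampus (1.64-fold, adjusted p = 0.020), against 0.11 ± 0.12 on the log2 scale in the cortex (region difference 0.60, unadjusted p = 0.0024, adjusted p = 0.17). Adam32 was not above background in hippocampal sham arrays and rose at least 1.62-fold. Among the 6 that fell, Scn1a, a sodium channel of inhibitory neurons, and Itpr1, the inositol trisphosphate receptor, changed by -0.43 and -0.38 in the hippocampus and by -0.26 and -0.11 in the cortex, with region differences of -0.17 and -0.26.

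Among the 2246 genes called in the cortex only, 951 had a region difference with an unadjusted p under 0.05 (13.2% of all genes did). A call in the cortex alone already selects for unequal changes, so this count is no separate evidence of a region difference. Several of the 2246 were high in both regions and missed the call in the hippocampus narrowly. Spp1, osteopontin, a secreted protein of activated phagocytes, rose from 2.86, 5.47, 3.36 and 4.18 to 29.6, 5.66, 173 and 79.6 in the hippocampus, and from 2.53, 3.77 and 5.16 to 95.2, 175, 172 and 290 in the cortex. TBI lay above sham on every array of both regions. Sham signals were well above background on 2 of 4 hippocampal and 0 of 3 cortical arrays, and the rise was at least 29.2-fold in the cortex (adjusted p = 0.0017), so no region difference is given. The hippocampal value was 10.1-fold (adjusted p = 0.061). Olr1, a receptor for oxidised lipoprotein, rose at least 10.9-fold in the cortex (adjusted p = 0.00093), and its hippocampal value was 4.81-fold (adjusted p = 0.052).

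A2m, alpha-2-macroglobulin, a protease inhibitor of the acute phase, and Il16, a chemoattractant for CD4+ cells, were less alike between the regions. A2m rose from 30.6, 46.4 and 27.1 to 127, 667, 153 and 208 in the cortex, and in the hippocampus had 126 to 179 in sham and 228, 190, 390 and 294 in TBI arrays. Its change was 2.75 ± 0.45 in the cortex and 0.77 ± 0.42 in the hippocampus (region difference -1.98, 95% interval -3.31 to -0.66; unadjusted p = 0.0066, adjusted p = 0.23), and a second probe gave -1.89. Il16 rose from 18.4, 8.43 and 21.0 to 54.5, 39.7, 29.3 and 60.9 in the cortex, and its hippocampal levels were 130 to 166 in sham and 102 to 145 in TBI arrays. Its region difference was -1.80 (unadjusted p = 0.00065, adjusted p = 0.13). As for Cotl1, the sham cortex had much lower levels of both genes than the sham hippocampus. For 28 of the genes called in the cortex only, neither cortical group was above background on any array, among them Phka1 and Fermt1, so no fold is given for them.

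MHC class 2 genes, which present peptides from outside the cell, included Cd74 and RT1-Da, whose fitted rises in the hippocampus were the largest of the shared genes. Of 9 tested genes of antigen presentation, 8 were higher after TBI in the cortex (10.1% of all genes) and 5 in the hippocampus (1.35% of all genes). The 5 were called in both. Cd74, the invariant chain that guides class 2 molecules through the cell, had hippocampal levels of 33.2, 39.6, 74.7 and 106 in sham and 775, 516, 1033 and 1489 in TBI arrays. Its cortical levels were 263, 256 and 459 in sham and 1792, 1816, 1103 and 2462 in TBI arrays. The groups did not overlap in either region, and every sham hippocampus lay below every sham cortex. The rise was 15.6-fold in the hippocampus (adjusted p = 0.00083) and 5.50-fold in the cortex (adjusted p = 0.0033), a region difference of 1.51 (95% interval 0.23 to 2.79; unadjusted p = 0.025, adjusted p = 0.31).

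RT1-Da and RT1-Bb, chains of the class 2 molecules themselves, had the same order. RT1-Da rose from 9.59 to 20.7 in sham to 185, 89.2, 246 and 325 in TBI hippocampi, and from 83.0, 72.3 and 134 to 528, 446, 320 and 656 in the cortex. The rises were 15.1-fold and 5.08-fold, with a difference of 1.57 (unadjusted p = 0.014, adjusted p = 0.27). RT1-Bb rose 9.81-fold in the hippocampus and 3.78-fold in the cortex, with a difference of 1.38 (unadjusted p = 0.0056, adjusted p = 0.22). Probes of RT1 genes can also bind near-identical copies, so each value may include its relatives. The larger hippocampal rise depended on the control. Hippocampal sham levels were below naïve and cortical sham levels above naïve, by -0.80 and 0.73 for Cd74 and -1.01 and 0.97 for RT1-Da. With naïve rats as the control, the region differences of all 9 genes were below 0, with a median of -0.49, and that of Cd74 was -0.03. Against sham, RT1-Db1, another chain that was called in both regions, leaned to the hippocampus as well, with a difference of 0.73 (unadjusted p = 0.066), while 4 members had a difference below 0. These were RT1-DMb at -0.62, which with RT1-DMa forms the molecule that helps load peptides, and 3 with an unadjusted p under 0.05. RT1-DMa, which loads peptides onto class 2 molecules, had a difference of -0.49 (unadjusted p = 0.014), Ctss, a protease that cuts the invariant chain, -0.66 (unadjusted p = 0.040) and Cd86 -1.12 (unadjusted p = 0.026). Ciita, the master activator of class 2 transcription, had a difference of 0.25 and was called in neither region.

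Sequences before the start sites of class 2 genes are shown because these genes rose together in both regions. Class 2 promoters are known for a Y box that binds the factor NF-Y. The letters GATTGG, searched on both strands of the 250 bases before the annotated start, were found for 4 of the 7 class 2 list genes with a promoter entry (57.1%), against 13.8% of all 27457 promoters and 15.3% of the 111 matched genes that were higher in both regions. The following windows are on the gene's strand of GRCr8, from RefSeq, with the match in capitals.
RT1-Da, chr20:4515340-4515395, plus strand: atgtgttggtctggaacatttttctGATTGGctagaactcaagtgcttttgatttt
RT1-Bb, chr20:4604150-4604205, minus strand: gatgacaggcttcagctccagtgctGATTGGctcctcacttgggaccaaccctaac
RT1-Db1, chr20:4560213-4560268, minus strand: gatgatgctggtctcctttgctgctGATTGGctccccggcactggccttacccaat
The match lay 50, 62 and 81 bases before the start. A match describes the letters in this window and is no evidence that a factor bound there.

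**Figure D3:**
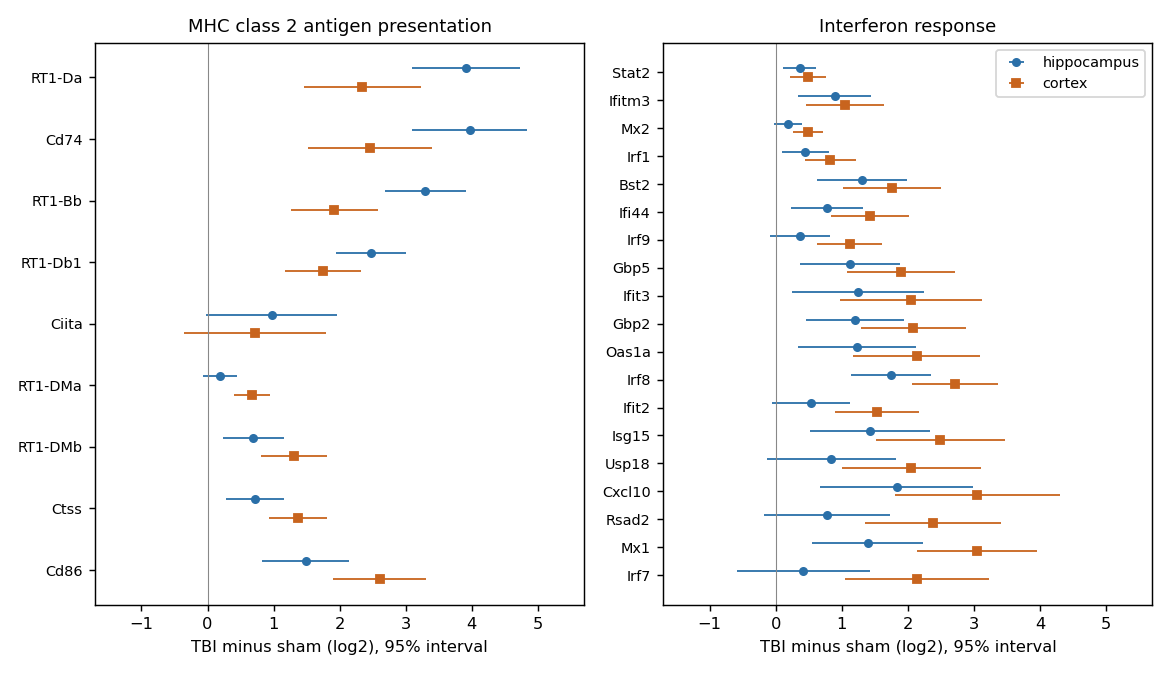
Log2 change from sham to TBI with its 95% interval for the genes of MHC class 2 antigen presentation (left) and of the interferon response (right), with hippocampus as blue circles and cortex as orange squares, ordered by the region difference. Cd74, RT1-Da and RT1-Bb lie further right in the hippocampus, and the 19 interferon genes plotted lie further right in the cortex, with intervals that overlap for most genes.

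The interferon response leaned to the cortex. All 20 tested genes were called higher after TBI in the cortex (10.1% of all genes). Irf8 alone was called in the hippocampus (1.35% of all genes higher), and all 20 had a positive change there too. All 20 region differences were below 0 (46.9% of all genes were), with a median of -0.84 against 0.02 over all genes, and 8 had an unadjusted p under 0.05 toward the cortex (5.85% of all genes did), but none was called. The 20 differences were also below 0 under each of the other scalings, and 19 were when cortical sham replicate 2 or hippocampal TBI replicate 2 was left out.

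Mx1, an antiviral GTPase, had cortical levels of 68.7, 64.5 and 56.7 in sham and 468, 810, 240 and 803 in TBI arrays. In the hippocampus it had 43.9, 131, 51.9 and 52.6 in sham and 118, 190, 178 and 187 in TBI arrays, and the groups overlapped through sham replicate 2. The rise was 8.24-fold in the cortex (adjusted p = 0.0013) and 2.62-fold in the hippocampus (adjusted p = 0.11), a difference of -1.65 (95% interval -2.89 to -0.41; unadjusted p = 0.013, adjusted p = 0.27). Irf7, the factor that amplifies interferon, had cortical levels of 43.7, 60.5 and 76.0 in sham and 243, 458, 99.9 and 396 in TBI arrays, against 36.9 to 89.9 in sham and 36.2 to 114 in TBI hippocampi. It changed by 2.14 ± 0.51 in the cortex (adjusted p = 0.012) and 0.42 ± 0.47 in the hippocampus (adjusted p = 0.75), and the difference was -1.72 (unadjusted p = 0.027, adjusted p = 0.32). Rsad2, viperin, an antiviral enzyme, changed by 2.38 ± 0.48 and 0.78 ± 0.44, with a difference of -1.60 (unadjusted p = 0.028), and a second probe gave -1.97. Cxcl10, a chemokine for T cells, rose at least 8.28-fold in the cortex and 3.55-fold in the hippocampus (adjusted p = 0.12). With naïve rats as the control the 20 differences had a median of -1.05 and 3 were called, among them Mx1 at -2.63 (adjusted p = 0.0067). That control gave 1364 called differences among all 25623 probes tested with it, and a median difference of 0.045 over them. The 3 calls are therefore not particular to the interferon genes.

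Promoter windows of interferon genes are shown because the whole list differed in 1 direction. The interferon-stimulated response element is written here as GAAANNGAAA, the core to which factors of the Irf family are known to bind. It was found on either strand for 10 of the 15 list genes with a promoter entry (66.7%), against 3.29% of all 27457 promoters and 3.60% of the 111 genes higher in both regions. Where the match is on the opposite strand, the capitals read as its reverse complement.
Rsad2, chr6:48788233-48788292, minus strand: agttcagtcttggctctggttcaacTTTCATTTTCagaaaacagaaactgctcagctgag
Irf7, chr1:205800058-205800117, minus strand: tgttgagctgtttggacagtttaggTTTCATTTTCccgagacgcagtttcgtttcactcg
Ifit3, chr1:241527257-241527316, plus strand: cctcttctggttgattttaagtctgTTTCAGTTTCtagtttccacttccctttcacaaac
Cxcl10, chr14:15988816-15988857, plus strand: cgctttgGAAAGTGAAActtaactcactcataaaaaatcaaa
These matches lay 147, 69, 44 and 243 bases before the start. The letters TTCNNNGAA, the core of the site of Stat dimers, were found for 6 of the 15 (40.0%, all promoters 7.52%). Among the 111 genes higher in both regions, GAGGAAGT, the site of Spi1, the main factor of the myeloid lineage, was found for 11 (9.91%, all promoters 2.04%), and the shorter GGAAGT that it contains for 37 (33.3%, all promoters 19.5%). All promoters include those of genes not tested here, and the shares were not compared by a test. As for class 2, a match describes letters and is no evidence that a factor bound.

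Complement, the protein cascade that tags targets for removal, was called for 14 of 18 genes in the cortex and 5 in the hippocampus, all higher. Over all genes, 10.1% were called higher in the cortex and 1.35% in the hippocampus, so every list has more room for calls in the cortex. C3, its central protein, rose from 73.4 to 198 in sham to 505, 358, 679 and 784 in TBI hippocampi (5.34-fold, adjusted p = 0.020), and from 76.3 to 88.3 to 1287, 1314, 508 and 1029 in the cortex (11.6-fold, adjusted p = 0.00080). The region difference was -1.11 (95% interval -2.25 to 0.02). Of 17 genes of disease-associated microglia and phagocytes, 16 were higher in the cortex and 8 in the hippocampus, and of 10 homeostatic microglial genes 7 and 3. The summed level of these 10 was 2627 to 2981 in sham and 3600 to 5477 in TBI hippocampi, and 3070 to 3208 and 4927 to 7799 in the cortex, so microglial markers moved with the shared genes, and their part in the other changes was not tested. MHC class 1 had 9 of 13 genes higher in the cortex and 1 in the hippocampus, chemokines and their receptors 7 of 14 and 4, with 1 lower in the cortex, and reactive astrocytes 8 of 15 and 2. In the last group Aspg rose 4.71-fold in the cortex and 3.33-fold in the hippocampus.

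Proliferation had 8 of 16 genes higher in the cortex (10.1% of all genes) and 0 in the hippocampus (1.35% of all genes). Among the 8, Mki67, a marker of dividing cells, changed by 1.33 ± 0.36 in the cortex and 0.28 ± 0.33 in the hippocampus. Kif11, a spindle motor, rose at least 1.75-fold in the cortex and changed by -0.02 ± 0.29 in the hippocampus. These probes were dim. All 16 differences were below 0, with a median of -0.35, but the median was 0.04 with normexp background correction. Of the T and B lymphocyte genes 7 of 22 were tested and of the neutrophil and monocyte genes 4 of 14, and 1 of each was called, higher in the cortex. The summed level of the 7 lymphocyte genes lay at 251 to 297 in sham and 355 to 754 in TBI cortex and at 210 to 269 and 273 to 383 in the hippocampus, higher after TBI with no overlap in either region. The summed level of the 4 neutrophil and monocyte genes was 73.3 to 146 and 138 to 391 in the cortex and 36.1 to 63.0 and 59.3 to 88.0 in the hippocampus, with overlap in both. These sums do not stand for a rise of most members. Of the 7 lymphocyte genes, 3 had a positive change in each region, with median log2 changes of -0.02 (hippocampus) and -0.07 (cortex). Of the 4 neutrophil and monocyte genes, 2 (hippocampus) and 1 (cortex) had a positive change, with medians of 0.11 and -0.08. The part of lymphocytes, neutrophils and monocytes in the other changes was not tested. No gene of endothelium and pericytes, thalamus or choroid plexus was called in either region, and 1 of 7 genes of blood was called, lower in the cortex.

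Some neuronal genes fell in the cortex, and most of the tested ones were not called in either region. In the cortex (10.6% of all genes lower) 8 of 20 genes of the excitatory synapse, 5 of 17 of inhibitory neurons, 8 of 19 immediate early genes and 8 of 24 ion channel genes were lower after TBI. In the hippocampus (0.121% of all genes lower) 1 ion channel gene of these 4 lists, Scn1a, was called. Camk2a, the kinase of the excitatory postsynapse, had cortical levels of 330, 270 and 332 in sham and 247, 192, 215 and 192 in TBI arrays, and overlapping hippocampal levels of 240 to 295 and 221 to 283. It changed by -0.56 ± 0.12 in the cortex (adjusted p = 0.0086) and -0.14 ± 0.11 in the hippocampus, a difference of 0.42 (unadjusted p = 0.026, adjusted p = 0.31). Its second probe gave a difference of 0.06. Arc, an activity-induced gene of dendrites, changed by -1.22 ± 0.32 in the cortex (adjusted p = 0.019) and -0.38 ± 0.30 in the hippocampus. Slc32a1, the transporter that fills vesicles with GABA, changed by -0.37 ± 0.10 and -0.02 ± 0.09. The median region difference was 0.17 for excitatory synapses, 0.25 for inhibitory neurons, 0.51 for immediate early genes and 0.22 for ion channels, against 0.02 over all genes, and none of these differences was called. With the array median in place of the 75th percentile the median of all genes was -0.12 and that of excitatory synapses 0.03. With cortical sham replicate 3 kept, the median cortical change of the excitatory synapse genes was 0.28 in place of -0.32. The summed cortical level of the ion channel genes was 13603 to 13852 in naïve and 15135 to 16156 in sham arrays. In TBI arrays it was 11721 to 13760, which overlapped naïve ones. TBI also overlapped naïve for inhibitory neurons (14776 to 19953 against 19221 to 21250). It lay below naïve for the excitatory synapse (27416 to 34058 against 34595 to 39062) and immediate early genes (2877 to 3769 against 4224 to 8163).

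**Figure D4:**
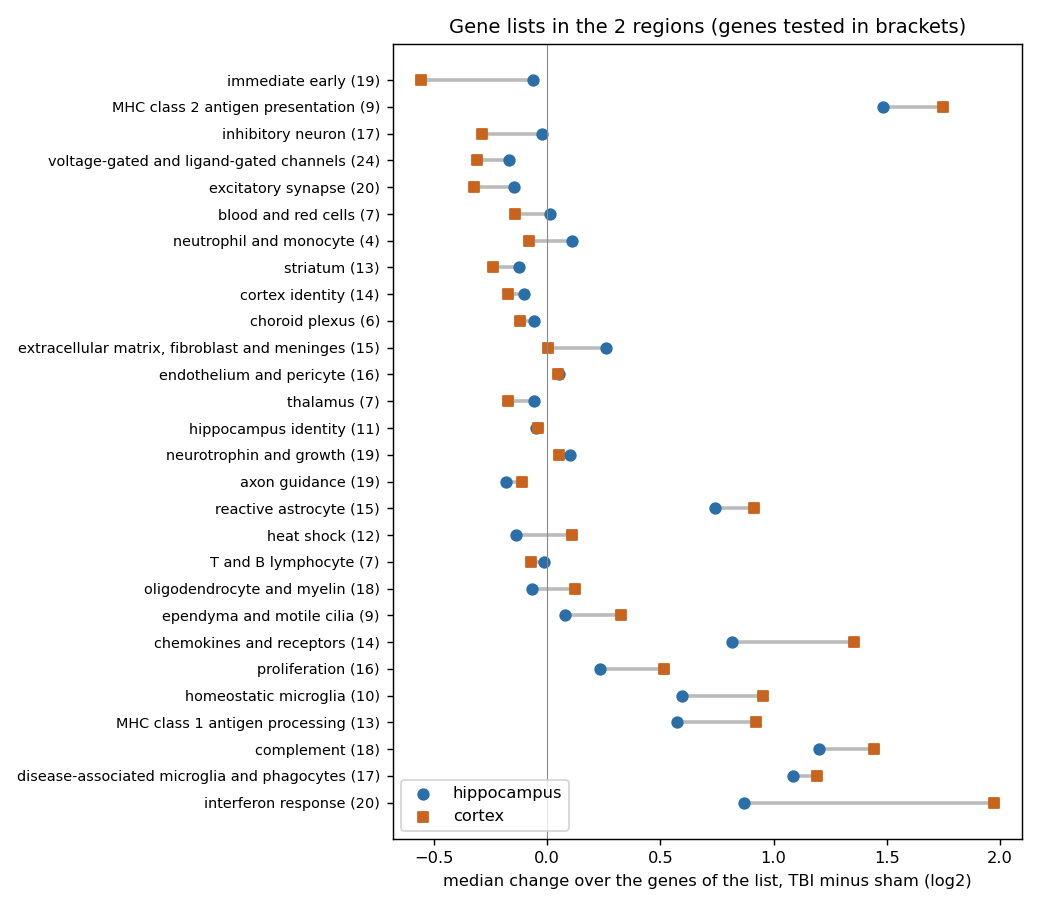
Median log2 change from sham to TBI over the tested genes of each of 28 lists (number of genes in brackets), with hippocampus as circles and cortex as squares joined by a grey bar, ordered by the median region difference. The lists of complement, MHC, microglia, phagocytes, reactive astrocytes, chemokines and the interferon response lie right of 0 in both regions and further right in the cortex, with the longest bar for the interferon response, while lymphocytes and neutrophils lie near 0. The excitatory synapse, inhibitory neuron, immediate early and channel lists lie left of 0 and further left in the cortex, axon guidance lies further left in the hippocampus, and neurotrophins lie just right of 0.

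The same rats gave both tissues by the methods, which do not say that equal replicate numbers mark the same rat. Deviations from the group means correlated at 0.123 to 0.414 between same-numbered TBI samples and at -0.215 to 0.131 between differently numbered ones, and hippocampal TBI replicate 2 was as close to cortical replicate 3 (0.131) as to cortical replicate 2 (0.123), so the pairing of numbers 2 and 3 is not settled. Of the 142 genes higher in both regions, TBI replicate 2 was the lowest of the 4 hippocampal TBI arrays for 129, and TBI replicate 3 the lowest of the 4 cortical ones for 124. The median of these genes above the sham mean of the region was 1.02, 0.68, 1.52 and 1.58 in the hippocampi and 1.70, 1.79, 1.09 and 1.79 in the cortices of replicates 1 to 4. By number, the cortex was higher for 1, 2 and 4, and the hippocampus for 3. The interferon genes had 0.89, 0.20, 1.45 and 1.17 in the hippocampi and 1.92, 2.48, 0.84 and 2.19 in the cortices, again with the opposite order for number 3. The class 2 list had 1.27, 0.78, 1.83 and 2.05 against 2.10, 1.53, 1.41 and 1.70, with a larger cortical shift for numbers 1 and 2. In all 3 lists the lowest hippocampal value was that of replicate 2 and the lowest cortical value that of replicate 3.

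**Figure D5:**
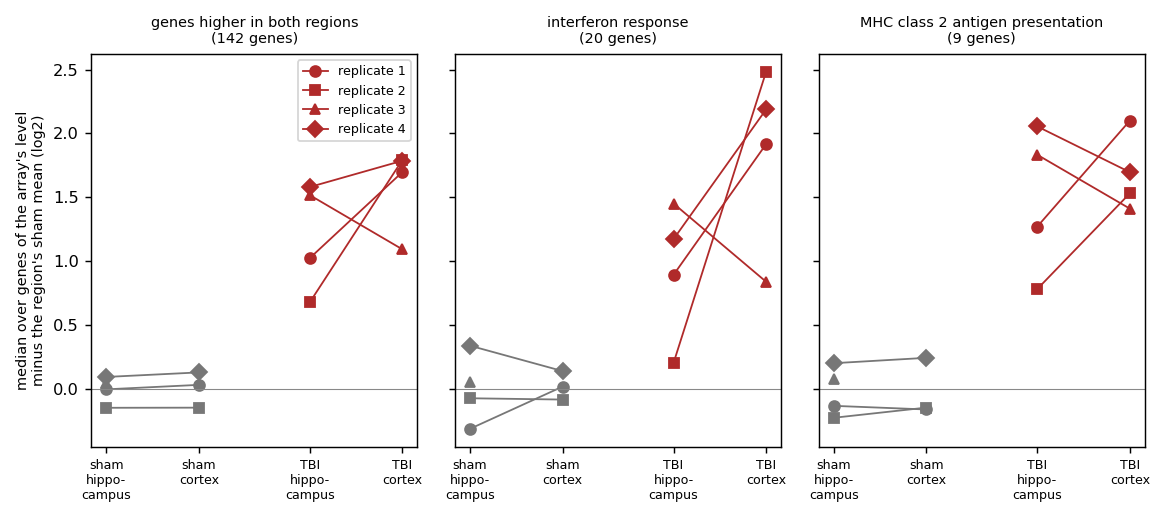
Median over the genes of a list of the log2 level of an array minus the region's sham mean, for genes higher in both regions, interferon genes and MHC class 2 genes, with 1 line per replicate number joining hippocampus and cortex (sham in grey, TBI in red, the cortex of sham replicate 3 left out). The line of TBI replicate 3 falls from hippocampus to cortex in all 3 panels, and that of TBI replicate 2 climbs most steeply in the first 2, the pair of numbers whose match is not settled.

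At 6 months after the injury, with 16 arrays of other rats, the region difference was called for 1 of 25006 probes (0.004%), which was not a probe called at 2 weeks, and 4.26% had an unadjusted p under 0.05. No probe was called in the hippocampus then and 36 (0.144%) in the cortex. At 6 months sham and TBI arrays were on different slides in both regions. An effect of the slide cannot be told apart from the changes or the region difference there either. Cotl1 had a difference of -0.58 at 6 months (unadjusted p = 0.014), Cbln4 of -0.15 and Capn5 of -0.05. A2m had a difference of -2.53 at 6 months (unadjusted p = 0.0024), which was not called. Cd74 and RT1-Da had 0.69 and 0.91, with unadjusted p-values of 0.41 and 0.36, and Mx1 -0.33 (unadjusted p = 0.62).

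At the thresholds of the study's methods, a fold change of 1.4 and an unadjusted p under 0.05, 622 genes passed in the hippocampus, 1358 in the cortex and 551 for the region difference. Both regions shared 466 genes with the same direction. A further 304 genes passed in the cortex only and for the difference, and 37 in the hippocampus only and for the difference.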

How the data were processed

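Tissue RNA was amplified from its poly(A)+ fraction and hybridized with 1 dye, 1 array per sample. The authors deposited spot intensities from Agilent Feature Extraction 11.5.1.1, of which the processed signal had the background removed and the spatial trend corrected, dim spots carried surrogate values, and arrays were not yet scaled to each other. The deposited flags for well above background and for outlier spots came from the same software, and no probe was saturated. The authors also deposited a table of intensities, whose values are the linear processed signal over a constant for the array that lay at percentile 74.9 to 75.2 (column medians 0.07 to 0.09), although the methods name the median. It served as an alternative.

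Outlier spots were left out, and log2 of the processed signal minus that of the 75th percentile of the array over 45598 probes was used. Tested were the 25453 probes that, in 1 or more of the 4 groups, were well above background throughout the group. Region by group means were fitted with limma 3.58.1 in R 4.3.3 without a block, with Benjamini-Hochberg adjustment over all tested probes. All adjusted and unadjusted p-values are two-sided and come from limma. SE means standard error. RefSeq accessions named 21109 probes (46.3%), and the brightest named probe on average stood for a gene. For a group with every array below background, the fold is a bound against the dimmest probes called above background. The number of arrays limits the precision.

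The methods say that the same rats gave both tissues, not that equal numbers mark the same rat. Deviations from the group means correlated at 0.123 to 0.414 (TBI) and 0.201 to 0.285 (sham) between same-numbered samples, and at -0.215 to 0.131 and -0.16 to 0.0427 between others. The number was a block in alternatives only. Promoters were the 250 bases before the annotated start, from RefSeq on GRCr8.

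Genes named are those with a called region difference, the 8 shared genes with the largest smaller change, up to 6 called in each region only with the largest difference, up to 3 per list, members of the class 2 and interferon lists and genes the study names at 2 weeks. Others named from a count of 19 or fewer were chosen after their values were seen. For 1 gene, counted with its list, values are not reported here. The members, the 28 gene lists and the tests were chosen with earlier results of these data known. The fits were tested on simulated data. Left out were cortical sham replicate 3 and the other intervals, apart from 6 months.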

Additional observations from a re-analysis of the deposited data

Results flagged for a closer look

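Cortical sham replicate 3 had 93.0% of its probes well above background, far from the 42.3% to 50.3% of the other cortical sham arrays, and was left out of the comparison. The change after TBI differed between the regions by the test of the difference itself for 5 probes, those of Cotl1 (-1.12), Cbln4 (1.74) and Capn5 (1.26) and the unnamed probes A_44_P1112931 (0.84) and A_44_P360946 (-0.60), all on the log2 scale as hippocampus minus cortex.

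By chance about 1 in 20 groups of 4 arrays holds 1 array far from the other 3. In the named genes 12 of 304 groups held such an array, which is no more than that share. Cortical TBI replicate 3 was such an array for 5 genes and the lowest in each, with levels of 33.5 for F10, 449.5 for Csf1r, 1054 for Aif1, 138 for Ncf1 and 33.4 for Ifit3. These genes are carried by microglia or switched on by interferon, and the array was also the lowest of its group for 124 of the 142 genes higher in both regions. Mx1 had a high sham hippocampus (replicate 2, 131) and a low TBI hippocampus (replicate 1, 117.8). In the hippocampus, Arc was low on TBI replicate 4 (388.5), Hspd1 was high on TBI replicate 2 (1100), Bdnf was high on sham replicate 2 (91.4) and Cd86 was high on sham replicate 3 (7.69). In the cortex Cacna1a was high on TBI replicate 1 (54.0).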

How the results depend on the processing

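The counts of 5 region differences, 243 probes in the hippocampus, 4723 in the cortex, 211 in both and 5 called in 1 region with a called difference depended on the processing, and the cause was not tested. With the array median, 19 differences were called, 18 of them in genes called in 1 region, and with quantile normalization 56 and 56. The median shifted the region difference of all probes from 0.02 to -0.13, and the split of higher and lower calls moved to 179 and 156 in the hippocampus (main 212 and 31) and to 2420 and 1316 in the cortex (main 2306 and 2417). With quantile normalization 6 differences were above 0 and 50 below (main 3 and 2). Normexp background correction, on the median spot signal since the files used hold no mean signal, gave 24 differences, 379 hippocampal calls and 21 called in 1 region, with 2285 higher and 4228 lower in the cortex. Without a filter 0 differences were called (4487 at an unadjusted p under 0.05 in limma), 15 in the hippocampus, 14 in both and 0 in 1 region, and with probes above background on all 15 arrays 9 and 9. Keeping cortical sham replicate 3 left 0 differences (795 unadjusted), 7, 344, 5 and 0 calls and turned the cortical change of Grin1 to 0.12, Gad1 to 0.26, Epha4 to 0.24 and Lhx2 to 0.35. Naïve rats as the control gave 1364 differences, 1573 hippocampal calls, 644 in both and 1139 in 1 region, and 0 of the 1364 were among the 5. Each region fitted alone gave 5 calls in the hippocampus (4457 unadjusted) and 1808 in the cortex. With the replicate block (number, fixed) 0 differences were called, and with a random replicate block 23, of which 21 in 1 region; the random block moved no other count by over 1.5 times. The fold of 1.4 with an unadjusted p under 0.05 gave 1421, 1129, 2943, 785 and 912 probes. The authors' table and naïve arrays added to the fit moved no count by over 1.5 times. Leaving out 1 array at a time gave 0 to 20 differences, 10 to 632 hippocampal, 3203 to 4912 cortical, 9 to 536 shared calls and 0 to 19 called in 1 region. The extremes came without hippocampal TBI replicate 3 (10 and 9) and 2 (632, 536 and 0 differences) and cortical TBI replicate 3 (20 and 19), and 0 differences were also called without cortical sham replicate 2, cortical TBI replicate 4 or hippocampal TBI replicate 4. All 211 shared probes had the same signs in both regions under the median, quantile normalization, the authors' table and each array left out, 209 did with normexp, 201 with naïve rats as the control and 197 with cortical sham replicate 3 kept. None of the genes called at 2 weeks was called at 6 months under the 3 alternatives tried there. A slide block could not be fitted, fixed or random, because slide coincides with the groups.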

Other observations

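The summed level of 7 genes of blood and red cells was 27798 to 37850 in naïve and 15446 to 22743 in sham hippocampi, while cortical naïve and sham arrays overlapped at 33333 to 46596 and 37383 to 38100. Hspd1, a mitochondrial chaperone, had opposite changes in the regions, at -0.19 ± 0.05 in the hippocampus and 0.18 ± 0.05 in the cortex (region difference -0.37, unadjusted p = 0.00028, adjusted p = 0.10), but its other 2 probes gave 0.29 and 0.07, and with naïve rats as the control the difference was 0.02. Foxj1, the master factor of motile cilia, rose 2.58-fold in the cortex (adjusted p = 0.018) and had a region difference of -1.06 at 2 weeks (unadjusted p = 0.046) and -1.43 at 6 months (unadjusted p = 0.069), with neither called. Its second probe moved less at 2 weeks, with a log2 change of 0.31 in the cortex (adjusted p = 0.055) and a region difference of -0.26 (unadjusted p = 0.087).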
